A study of Mus musculus with 4 samples.

Results

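The genes described here are GSTM3, GSTZ1, AKR1C1 and DHRS3, which encode a pair of glutathione transferases and a pair of carbonyl reductases. They were taken by symbol from the deposited table, using every probe set whose platform annotation gives exactly 1 gene symbol. Each had 1 probe set, so they are 4 of the 99 genes that the table names in this way. Their lower values in DHHC3-depleted tumors were known when they were chosen, so the differences between the groups are given as a description and not as a test.

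RNA came from xenografts of MDA-MB-231, a human triple-negative breast cancer line, grown in the mammary fat pad of female athymic nude mice (Crl:NU(NCr)-Foxn1nu) and labelled as tumors after 35 days. 2 samples came from tumors of cells carrying a control shRNA, a short hairpin RNA that here serves as the comparison. The other 2 came from tumors of cells with a hairpin (DHHC3 shRNA) directed at DHHC3, the palmitoyltransferase encoded by ZDHHC3. Each sample was read on 1 array of human probe sets and is called a tumor below. All 4 samples shared the cell line, the host strain and the site. The hosts lack thymus-derived T cells but keep other immune cells. The labels do not say how many hairpin sequences were used. They also do not say whether the replicates of a group were separate tumors, or whether each tumor grew in its own mouse. Any p-value then measures the spread between these samples only, which may be technical. None of the 30 marker genes chosen to check the tumor cells and host cells had a probe set in the table, so the labelled cell type could not be checked here. The labels give mouse as the organism, and how much host RNA bound to the human probes was not tested.

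Glutathione transferases join the tripeptide glutathione to reactive, electrophilic molecules, which makes them more soluble and easier to export. Carbonyl reductases use NADPH to turn aldehydes and ketones into alcohols. Aldo-keto reductases and short-chain dehydrogenases are separate protein folds that both do this. Many of these enzymes act on products of lipid oxidation as well as on drugs, steroids or retinoids, and several glutathione transferases and aldo-keto reductases are targets of the transcription factor NRF2.

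The values are probe set intensities in arbitrary units, as deposited. GSTM3 encodes a mu-class glutathione transferase found in the cytosol. Its probe set 202554_s_at read 2456 and 2311 in the 2 control tumors and 1193 and 1158 in the 2 DHHC3-depleted tumors. Both control arrays lay above both depleted arrays, with the nearest pair of arrays 1.94-fold apart and the farthest pair 2.12-fold apart. The group means were 2384 ± 103 and 1175 ± 24.6 (SD, n = 2 each), and the log2 difference, depleted minus control, was -1.02 ± 0.09 (limma SE), a 2.03-fold lower level. The suffix _s_at marks probes that can match several transcripts, which matters for a gene with close relatives in the mu-class cluster.

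GSTZ1 encodes the zeta-class transferase, also called maleylacetoacetate isomerase, which acts in the breakdown of tyrosine and also converts dichloroacetate. Its probe set 209531_at read 939 and 1004 in the control tumors and 570.0 and 556 in the depleted tumors. The groups did not overlap, and the nearest arrays were 1.65-fold apart, the narrowest gap of the 4 genes. The group means were 972 ± 45.9 and 563 ± 10.1 (SD, n = 2 each), a log2 difference of -0.79 ± 0.09 (limma SE), or 1.73-fold lower.

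AKR1C1 encodes an aldo-keto reductase best known as a hydroxysteroid dehydrogenase that inactivates progesterone, and it also reduces aldehydes from oxidized lipids. Its probe set 204151_x_at read 521 and 541 in the control tumors and 307 and 301 in the depleted tumors. The groups did not overlap, and the nearest arrays were 1.70-fold apart. The group means were 531 ± 13.9 and 304 ± 3.59 (SD, n = 2 each), a log2 difference of -0.80 ± 0.08 (limma SE), or 1.75-fold lower. The _x_at suffix marks probes that can bind other transcripts. AKR1C1 has near-identical neighbours in its family, AKR1C2 above all, so the value is uncertain as to which copy gave it. No other AKR1C gene is named in the table.

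DHRS3 encodes a short-chain dehydrogenase that reduces retinaldehyde to retinol and so limits the supply of retinoic acid. Its probe set 202481_at read 149.9 and 140.45 in the control tumors and 72.2 and 70.6 in the depleted tumors. The groups did not overlap, with the nearest arrays 1.95-fold apart. The group means were 145 ± 6.65 and 71.4 ± 1.12 (SD, n = 2 each), a log2 difference of -1.02 ± 0.09 (limma SE), or 2.03-fold lower. On both depleted arrays it held place 131 of 137 when the probe sets were ordered from bright to dim, so it was close to the floor of the table there. Detection calls were not used here, so how much of that signal was background was not tested.

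**Figure D1:**
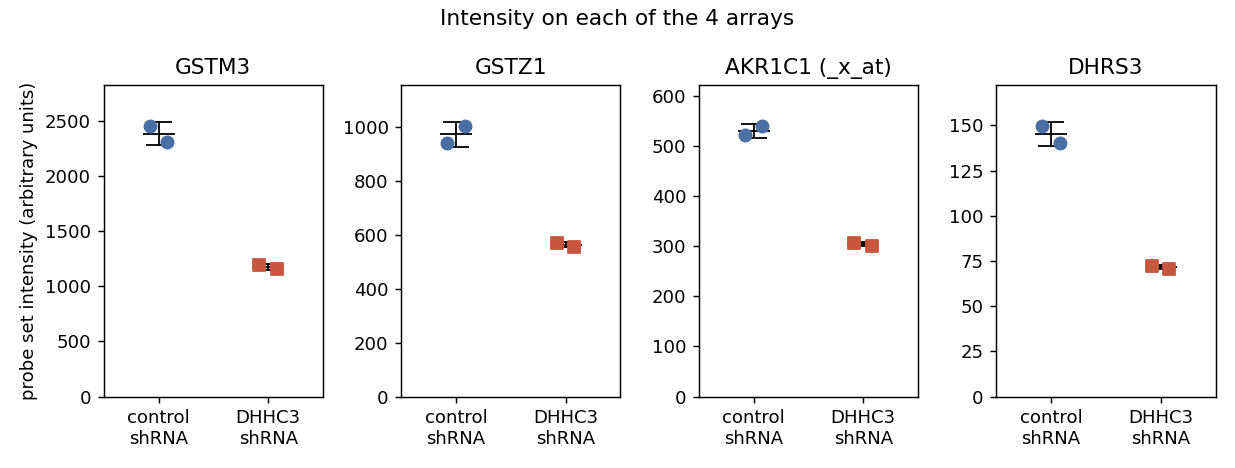
Probe set intensity in arbitrary units (linear axes from 0, 1 panel per gene) on each array: circles are the 2 control shRNA tumors, squares the 2 DHHC3 shRNA tumors, and bars are the mean and SD of each group. In every panel both squares lie below both circles, from 2456 and 2311 down to 1193 and 1158 for GSTM3.

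All 4 genes were lower in the depleted tumors and none had overlapping groups. This count has to be read against a table that holds separated probe sets throughout: 100% of its 137 probe sets had groups that did not overlap, and 26.3% were lower with no overlap. With limma, which tests each probe set with a spread shared over the table, the share called at an adjusted p under 0.05 was again 100%, and 26.3% for calls of a lower level. The 4 genes were chosen from this same contrast, so nothing is read from their own calls. Their median was 1.88-fold lower, against a median of 1.83-fold over the 36 lower probe sets, while the median log2 difference over all 137 was 0.94. Some genes best known from leukocytes, picked after their values were seen, were lower too. TRBC1, a T cell receptor constant region gene, read 158 and 147 in the controls and 25.4 and 50.4 after depletion, the largest fall in the table. Its limma SE was 0.32 on the log2 scale. Both depleted values lay under the 25th percentile of their arrays, 225 and 215. The hosts lack thymus-derived T cells, and the xenografted cells are a breast cancer line. Which cells gave the TRBC1 signal was not tested. PTPN7, a phosphatase, read 288 and 277 against 149 and 153, and HCLS1, a signalling protein, 276 and 290 against 168 and 174. No list of leukocyte genes was used, so those that rose were not counted. NAIP, which also has an immune role, rose from 74.4 and 64.3 to 179.8 and 179.6. The part of leukocytes in the result was not tested. In bulk tumor RNA, fewer cells that express a gene and less RNA per cell cannot be told apart.

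Among the 36 lower probe sets, whose falls ran from 1.64-fold to 4.25-fold, DHRS3 had the 10th largest fall and GSTM3 the 11th. AKR1C1 was in place 26 and GSTZ1 in place 29. DHRS3 and GSTM3 thus fell by more than the median of the lower probe sets, and AKR1C1 and GSTZ1 by less. ZDHHC3, the target of the hairpin, held place 2: it read 971 and 854 in the control tumors and 240 and 264 in the depleted tumors, 3.62-fold lower. The direction of the target thus went with the labels. Every probe set in the table was separated between the groups, so only the sign of this difference could have been otherwise.

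**Figure D2:**
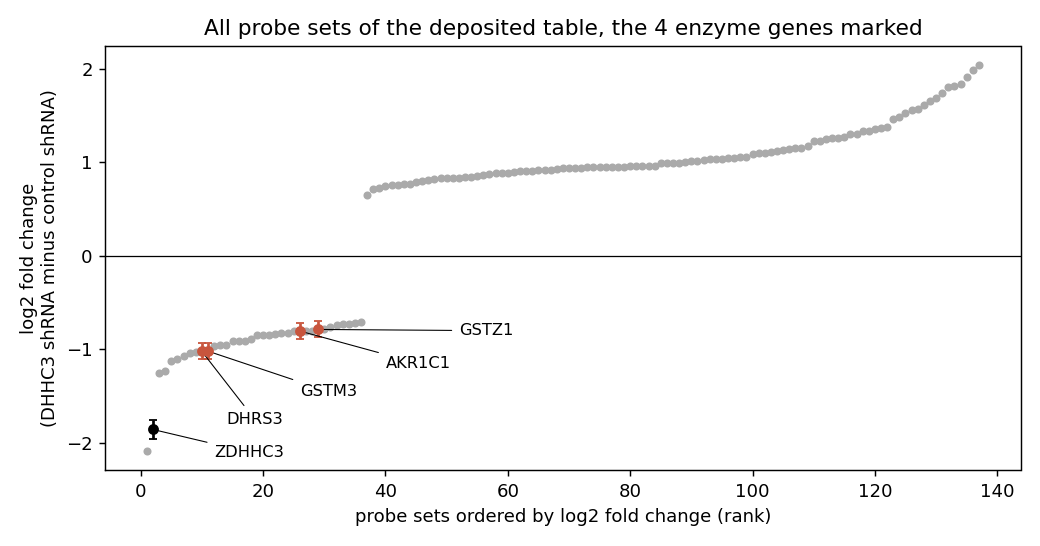
Log2 fold change, DHHC3 shRNA minus control shRNA (vertical axis), of all 137 probe sets ordered by rank (horizontal axis), with the 4 enzyme genes in red, ZDHHC3 in black and bars for the limma SE. DHRS3 and GSTM3 sit side by side at -1.02, AKR1C1 and GSTZ1 near -0.80 and -0.79, and the smallest fall in the table is 1.64-fold.

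The 4 falls formed 2 pairs of nearly equal size, and neither pair was a pair of like enzymes. The transferase GSTM3 went with the retinaldehyde reductase DHRS3, and the transferase GSTZ1 with the steroid reductase AKR1C1. This can be seen in ratios taken within an array, which multiplying all values of that array by the same factor cannot alter. Quantile normalization or an added constant, both described below, can alter them. Only the change of such a ratio between arrays was read, since the level of one probe set says nothing about that of another. The log2 ratio of GSTM3 to DHRS3 was 4.03 and 4.04 in the controls and 4.05 and 4.04 after depletion, a change of 0.0030. The groups overlapped for this ratio.

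The log2 ratio of GSTZ1 to AKR1C1 was 0.85 and 0.89 in the controls and 0.89 and 0.88 after depletion, a change of 0.017, again with overlap. For the 4 other pairs of the 6 the ratios did not overlap. The share of such ratios over all pairs of probe sets in the table was not computed, so nothing is read from this count. The log2 ratio of GSTM3 to GSTZ1, the pair of transferases, went from 1.39 and 1.20 to 1.07 and 1.06, a change of -0.23. That of AKR1C1 to DHRS3, the pair of reductases, went from 1.80 and 1.94 to 2.09 and 2.09, a change of 0.22. The ratio of GSTM3 to AKR1C1 changed by -0.22 and that of GSTZ1 to DHRS3 by 0.24. The falls of GSTM3 and DHRS3 were thus larger than those of GSTZ1 and AKR1C1 by 1.16-fold to 1.18-fold on these arrays. With groups of 2, the smallest p that an exact two-sided permutation test allows is 0.333, so none of these differences can pass a test alone, and the pairs were noticed after the values were seen.

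**Figure D3:**
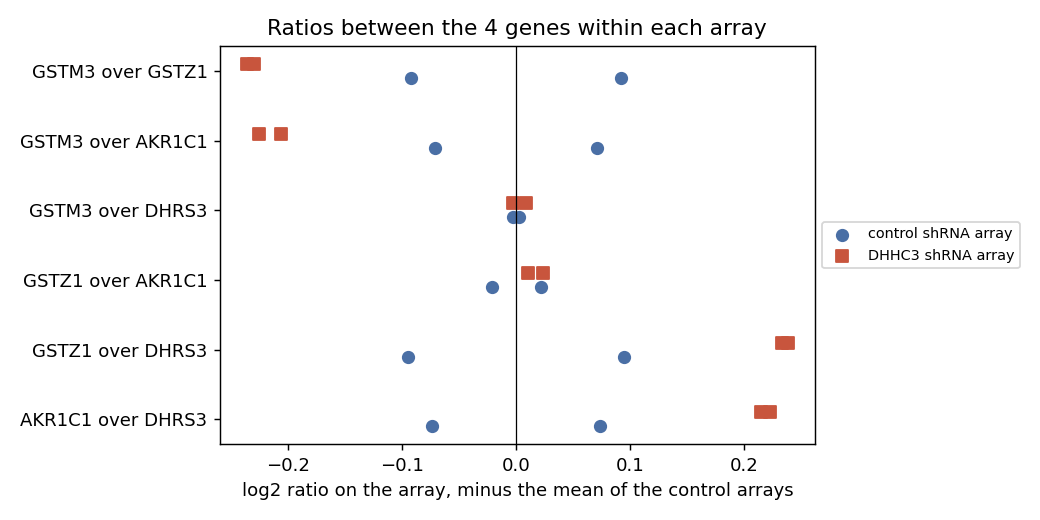
Log2 ratio of 1 gene to another within each array, minus the mean of that ratio on the control arrays (horizontal axis), for the 6 pairs of genes (vertical axis); circles are control shRNA arrays and squares DHHC3 shRNA arrays. The squares overlap the circles for GSTM3 over DHRS3 and for GSTZ1 over AKR1C1, and lie apart from the circles in the other 4 pairs.

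The fall of each enzyme was smaller than that of the targeted transcript. The log2 ratio of GSTM3 to ZDHHC3 was 1.34 and 1.44 in the controls and 2.31 and 2.14 after depletion, and that of DHRS3 to ZDHHC3 went from -2.70 and -2.60 to -1.73 and -1.90. For GSTZ1 this ratio went up by 1.07 and for AKR1C1 by 1.05. None of the 4 ratios overlapped between the groups. ZDHHC3 had the 2nd largest of the 36 falls in the table, and only TRBC1 fell by more. A smaller fall than that of ZDHHC3 was thus not particular to the 4 enzymes. Each of the 101 probe sets that were higher must also have a separated ratio to ZDHHC3, since ZDHHC3 was lower. The share of separated ratios to ZDHHC3 over the table was not computed, so nothing is read from the lack of overlap. DHHC3-depleted tumors kept 49.3% of the control intensity of GSTM3, 49.2% of DHRS3, 57.3% of AKR1C1 and 58.0% of GSTZ1, against 27.6% of ZDHHC3.

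The arrays of a group also differed a little among themselves. In the control group, GSTM3 and DHRS3 were higher in replicate 1, by 1.06-fold and 1.07-fold, while GSTZ1 and AKR1C1 were higher in replicate 2, by 1.07-fold and 1.04-fold. The same pairs thus leaned the same way among the controls. Over the table, 73 probe sets were higher in control replicate 1 and 64 in control replicate 2, and among the 36 lower ones these counts were 25 and 11. In the depleted group all 4 genes were higher in replicate 1, by 1.03-fold for GSTM3, 1.03-fold for GSTZ1, 1.02-fold for AKR1C1 and 1.02-fold for DHRS3. Of all 137 probe sets, 77 were higher in depleted replicate 1, as were 14 of the 36 with lower values after depletion. The gaps between replicates of the 4 genes were 0.054 to 0.096 on the log2 scale in the controls and 0.024 to 0.043 in the depleted tumors. The table's medians were 0.15 and 0.091, and those of the lower probe sets 0.079 and 0.052.

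Likeness to the other probe sets with 1 gene symbol was measured as the root mean square difference of log2 values over the 4 arrays, each probe set centred on its own mean. Of 100 candidates, DHRS3 was nearest to GSTM3, at 0.0045, and GSTM3 was nearest to DHRS3. S100A4, a calcium binder of motile cells, came next for both, at 0.035 from GSTM3 and 0.032 from DHRS3. PFDN4, a subunit of the chaperone prefoldin, was the third for both, at 0.036 from each. AKR1C1 and GSTZ1 were likewise each other's nearest probe set, at 0.018. BNIP1, a protein of vesicle fusion at the endoplasmic reticulum, was the next for both, at 0.030 from AKR1C1 and 0.038 from GSTZ1. The third was SMIM27 for AKR1C1, at 0.040, and HCLS1 for GSTZ1, at 0.045. From GSTM3, AKR1C1 was in place 19 and GSTZ1 in place 24. With 4 arrays in 2 separated groups, this measure mostly orders probe sets by how nearly their falls agree in size.

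Of the related enzymes, few had a probe set in the table. Of 24 glutathione transferases and related enzymes listed, GSTM3 and GSTZ1 were the 2 present. AKR1C1 was the 1 of 15 aldo-keto reductases and their relatives, and DHRS3 the 1 of 39 short-chain dehydrogenases and carbonyl reductases. None of 36 other conjugating and detoxifying enzymes and transporters, such as NQO1 or the sulfotransferases, was present. The same 3 genes were the 1 of 6 genes of tyrosine breakdown (GSTZ1), the 1 of 17 of steroid reduction (AKR1C1) and the 1 of 23 of retinoid metabolism and its targets (DHRS3). A gene outside the table was not analysed here, so these counts say nothing about whether it changed.

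The list of 39 genes of glutathione supply, antioxidant enzymes and NRF2 signalling had 2 genes in the table, both higher in the depleted tumors. TXNIP, the inhibitor of thioredoxin and not itself an antioxidant enzyme, read 922 and 905 in the controls and 2376 and 2317 after depletion. PRDX2, a peroxiredoxin, read 255 and 252 against 516 and 586, on a probe set with the _x_at suffix. The 4 enzymes and these 2 genes thus lay on opposite sides of the table, where 101 probe sets were higher and 36 lower. With only these 2 genes present, nothing is read about the list as a whole. None of GCLC, GCLM, HMOX1 or TXNRD1, which are classic NRF2 targets, was present.

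The direction of the 4 genes was the same under each scaling, while the sizes were not. With each array centred on its median the falls were 2.88-fold for GSTM3, 2.46-fold for GSTZ1, 2.48-fold for AKR1C1 and 2.89-fold for DHRS3. Quantile normalization, which keeps only the ranks within the table, gave 2.72-fold, 2.03-fold, 2.67-fold and 4.17-fold in the same order, so the equal falls within each pair were not kept there. DHRS3 moved most, from 2.03-fold as deposited to 4.17-fold, as its rank went from 94 and 95 on the control arrays to 131 on both depleted arrays. With 16 units added before the logarithm DHRS3 was 1.84-fold lower, below the 2.01-fold of GSTM3. Of the 36 falls in the table, all 36 were larger with centring and all 36 after quantile normalization, so larger falls under these scalings were shared by every lower probe set. Centring moves every log2 difference by the same amount, so its count and the kept direction were fixed in advance. Both scalings take as reference the table itself, where 101 probe sets were higher and 36 lower. Their larger falls are therefore not better estimates of the size.

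**Figure D4:**
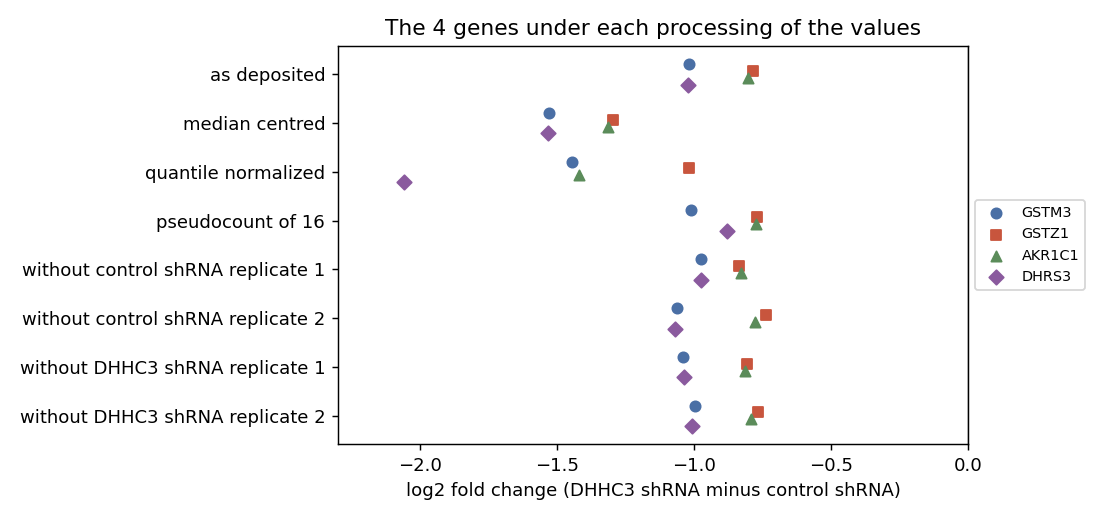
Log2 fold change, DHHC3 shRNA minus control shRNA (horizontal axis), of the 4 genes under each processing of the values (vertical axis, 1 line per setting; symbols mark the genes). All points lie below 0; DHRS3 moves farthest, to -2.06 after quantile normalization, and with any 1 array left out GSTM3 and DHRS3 stay lower than GSTZ1 and AKR1C1.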

How the data were processed

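The authors deposited linear intensity values for 137 probe sets on 4 arrays. Per the labels' protocols, total RNA was turned into biotin-labelled cRNA by in vitro transcription. Background correction, summarisation, scaling and the rule that chose the probe sets are, in the sources used here, not given. Genes were named from the platform annotation: 101 probe sets had 1 symbol, 7 several and 29 none. The log2 of each intensity was taken, with no pseudocount added. DHHC3 shRNA was compared with control shRNA in limma 3.58.1 (R 4.3.3, no covariates), with Benjamini-Hochberg adjustment over 137 probe sets. The procedure was also run on simulated data in which most probe sets did not change. That differs from this table, so nothing is read from that run. Figures used matplotlib 3.10.9. The number of arrays limits the precision. The genes and the lists were chosen with earlier results of these data known. Genes named besides the 4 were ZDHHC3, the 3 nearest profiles of each, and list genes present in the table. TRBC1, PTPN7, HCLS1 and NAIP were picked after their values were seen. In addition, 4 absent NRF2 targets were named as examples. No human genome or sequence was used here, so no positions or sequences are given. Alternatives were 2 other scalings, a pseudocount of 16, a replicate block, leaving out each array, a filter on the dimmest 25%, an intensity trend, leaving out _x_at probe sets, and a 2-fold requirement.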

Additional observations from a re-analysis of the deposited data

How the results depend on the processing

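Each of the 4 genes was lower in DHHC3-depleted tumors under every alternative that kept its probe set: the filter on the dimmest 25% removed DHRS3, and leaving out _x_at probe sets removed AKR1C1. GSTZ1 and AKR1C1 did not meet the 2-fold requirement, while GSTM3 and DHRS3 did. The log2 differences of GSTM3, GSTZ1, AKR1C1 and DHRS3 were -1.53, -1.30, -1.31 and -1.53 with median-centred arrays, and -1.44, -1.02, -1.42 and -2.06 after quantile normalization. With a pseudocount of 16 those of AKR1C1 and DHRS3 were -0.77 and -0.88. Leaving out 1 array gave -1.06 to -0.98 for GSTM3, -0.84 to -0.74 for GSTZ1, -0.83 to -0.78 for AKR1C1 and -1.07 to -0.98 for DHRS3. limma called 137 of 137 probe sets as deposited, 124 with centring, 104 with quantile normalization and 60 (49 higher, 11 lower) when a 2-fold difference was also required. With the replicate number as a block it called 137. Each group has 1 array of each replicate number, so this block could not change the 4 differences. Deviations of same-numbered arrays correlated at 0.061, so the numbers are not taken to pair the tumors. The table holds only separated probe sets, so these counts of calls are no sign of stability. Signal over background is unknown.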
